A study of Saccharomyces cerevisiae with 9 samples.

Results

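The genes described are those of the large subunit of the cytosolic ribosome of budding yeast, Saccharomyces cerevisiae. They were chosen by standard name, RPL followed by a number, together with the stalk genes RPP0, RPP1A, RPP1B, RPP2A and RPP2B, and 81 such genes were found among 6268 features in the table. All 81 had a value on all 9 arrays, and none was removed by a filter. A further symbol, RPP1, fits the letters of the name pattern but encodes a subunit of nuclear RNase P, so it was left out. Of the 81 genes, 70 form 35 pairs of copies, named A and B, and 11 are single.

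The large subunit holds the catalytic centre that joins amino acids and the tunnel through which the new chain leaves, and its stalk proteins recruit the factors that drive translation. Many of its proteins are encoded by duplicated genes whose copies make identical or nearly identical products. In yeast, ribosomal protein genes are among the most actively transcribed, they are switched largely together through the factors Rap1, Fhl1, Ifh1 and Sfp1, and their transcripts are known to decline under stress or when TOR signalling falls. Ypk1 and Ypk2 are related AGC kinases downstream of the TOR complex TORC2, and a cell needs one of them to live.

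Every strain lacked both chromosomal kinase genes and carried a plasmid with a single kinase, and all were grown in synthetic medium without leucine. On 4 arrays, cells with AS Ypk1, an analog-sensitive form whose ATP pocket accepts a bulky inhibitor, were compared with WT Ypk1 cells after 0, 15, 30 and 60 min of 2,3-DMB-PP1 at 0.5 µM. On 4 more, AS Ypk2 cells were compared with WT Ypk2 cells after the same times of 3-MB-PP1 at 1 µM, and the ninth array set WT Ypk2 cells against WT Ypk1 cells without inhibitor. The 2 series differ in kinase, inhibitor and dose at once, so these cannot be told apart, and each condition has 1 array with no dye swap, AS cells always being in the Cy5 channel. The plasmid's promoter and copy number are not given in the sources used here. Values are log2 ratios of AS over WT cells (WT Ypk2 over WT Ypk1 on the last array), relative to the median feature of the array, and they carry no transcript level, so genes are compared by ratio only.

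The genes of the kinases followed the labels on the WT array, where YPK2 stood at 5.49 and YPK1 at −4.33. The medians of the deposited arrays ran from −0.52 to 0.23 before centring. The limma tests below use 15, 30 and 60 min as repeated looks at inhibited cells. Their p-values therefore measure the spread between times, possibly within a single culture. That spread is estimated from both series together, so a p-value of 1 series also rests on the other. The ± of a later ratio is the SD over the times of its own series alone (n = 3). A later ratio means the average of the 3 times, and a change means that average minus 0 min, with its standard error (SE).

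Before inhibitor, much of the large subunit already stood high in AS cells relative to WT cells. At 0 min the 81 genes had a median of 0.63 with AS Ypk1, with a range from −0.81 to 2.23. With AS Ypk2 their median was 0.55, with a range from −0.70 to 1.43, and without centring the median was 0.315. At least 2-fold higher in AS cells were 35 of 81 genes (43.2%) in the Ypk1 series, against 4.39% of all features, and 25 of 81 (30.9%) in the Ypk2 series, against 4.74% of all features. None was 2-fold lower on either 0 min array, where 1.6% and 0.0957% of all features were. These are single arrays, so no test applies, and a dye effect and a strain difference cannot be told apart.

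Which genes stood high at 0 min was partly shared. Of the 35 genes at least 2-fold higher with AS Ypk1, 17 (48.6%) were also so with AS Ypk2, and these made up 68% of the 25 genes there. The same overlap over all features was not computed. Across the 81 genes, which are not independent replicates, the 0 min arrays correlated at r = 0.59, and across all features at r = 0.17. RPL12B, which encodes a protein at the base of the stalk, stood highest with AS Ypk1 at 2.23, and at 0.81 with AS Ypk2. RPL32 was highest with AS Ypk2, at 1.43, and stood at 0.20 with AS Ypk1. At the low end, RPL30 stood at −0.81 with AS Ypk1 and RPL2A at −0.70 with AS Ypk2. The high ratios thus did not extend to every gene, as 61 and 60 of the 81 lay above the array median on the 0 min arrays of AS Ypk1 and AS Ypk2.

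**Figure D1:**
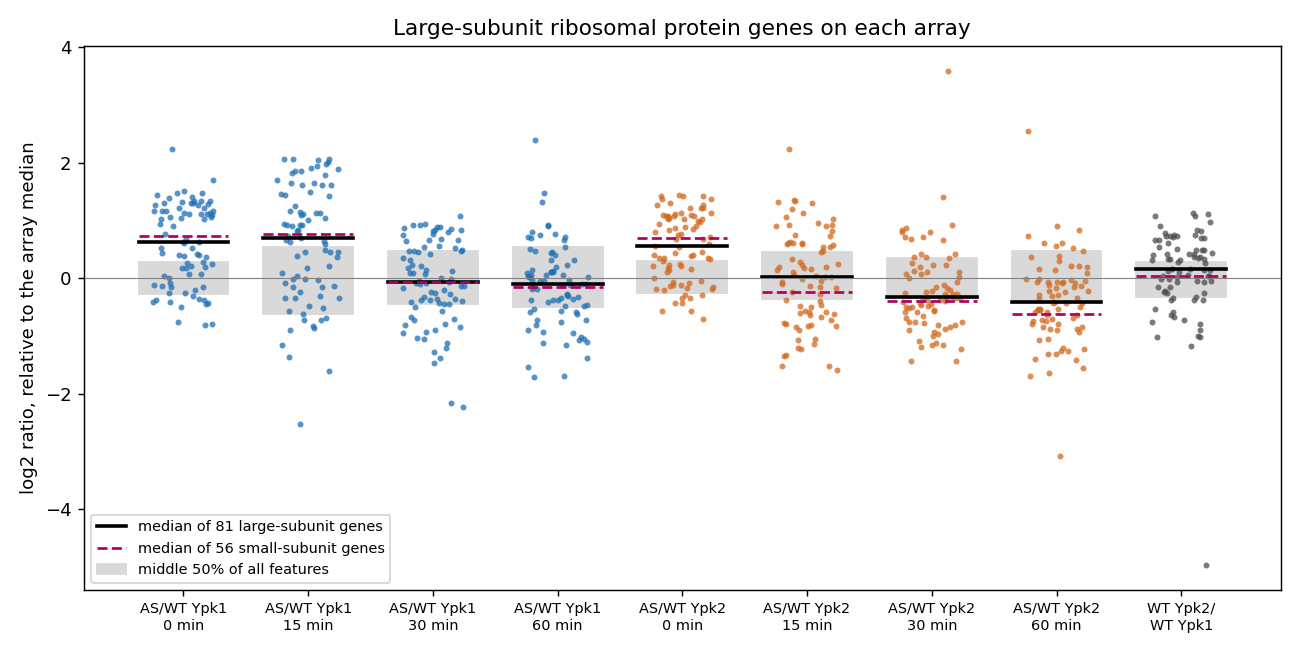
Each point is 1 of the 81 large-subunit genes, with its log2 ratio relative to the array median on the y axis and the 9 arrays on the x axis. Black lines mark the median of the 81 genes, dashed lines that of 56 small-subunit genes, and grey boxes the middle 50% of all features. The black line stands at 0.63 and 0.70 at 0 and 15 min of the Ypk1 series and near 0 at 30 and 60 min, while for AS Ypk2 it stands at 0.55 at 0 min, 0.03 at 15 min and −0.41 at 60 min.

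The medians of the 2 time courses parted at 15 min, a time with 1 array each and so with no test. With AS Ypk1 the median of the 81 genes was 0.63, 0.70, −0.07 and −0.11 at 0, 15, 30 and 60 min. With AS Ypk2 it was 0.55, 0.03, −0.33 and −0.41 at these times. Relative to the array median, the high ratios of 0 min were thus still present at 15 min with AS Ypk1. With AS Ypk2 the median was by then close to that of all features. This contrast depends on the centring. The deposited medians of all features at 0 and 15 min were 0.23 and −0.52 with AS Ypk1, and −0.24 and −0.20 with AS Ypk2.

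At 15 min, 32 genes (39.5%) were at least 2-fold higher and 4 (4.94%) 2-fold lower with AS Ypk1, against 12.1% and 12.8% of all features. With AS Ypk2 at 15 min, 9 genes (11.1%) were higher and 10 (12.3%) lower, against 9.46% and 3.69% of all features. The high genes of 15 min were largely those of 0 min with AS Ypk1: 24 of the 35 genes at 0 min (68.6%) were high again, making up 75% of the 32. With AS Ypk2 the overlap was 5 genes, 20% of the 25 at 0 min and 55.6% of the 9 at 15 min. At most 9 genes could have overlapped there, and 32 with AS Ypk1. The share over all features was not computed, so these overlaps cannot be compared between the series.

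At 30 min, 1 gene (1.23%) was 2-fold higher and 9 (11.1%) 2-fold lower with AS Ypk1, against 9.74% and 9.16% of all features. With AS Ypk2 these counts were 2 (2.47%) and 9 (11.1%), against 7.82% and 4.24% of all features. Few large-subunit genes were thus still high by then. At 60 min, 3 genes (3.7%) were 2-fold higher and 10 (12.3%) 2-fold lower with AS Ypk1, against 12.3% and 9.03% of all features. With AS Ypk2 the counts were 1 gene (1.23%) higher and 14 (17.3%) lower, against 10.1% and 6.62% of all features. None of the genes 2-fold higher at 15 min with AS Ypk1, or at 0 min with AS Ypk2, was 2-fold higher in the same series at 60 min. At most 3 and 1 genes could have overlapped, and the share over all features was not computed, so this says little.

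For the average of the later times, the ratio of AS Ypk1 over WT cells was higher for 9 large-subunit genes and lower for 7. The other 65 did not pass limma's test. With no dye swap, the later ratio cannot tell an effect of the inhibitor from a dye effect or a strain difference. The higher genes are 11.1% of the 81, against 10.9% of the 6220 features tested, and the lower genes 8.64%, against 10.5%. The share of genes that passed was thus near that of all features in both directions. Without centring the split was 5 higher and 14 lower, 23.5% of the 81 against 24.9% of all features. With quantile normalization it was 5 higher and 11 lower, 19.8% against 23% of all features. Of all features called in these settings, 348 of 1549 and 360 of 1429 were higher, so they too were mostly lower. Across the 81 genes the median later ratio was 0.17, and it lay below 0 without centring, with quantile normalization and without 15 min (−0.11, −0.08 and −0.11). The counts were 0 higher and 1 lower without 30 min (1.23%, against 4.13% of all features). They were 1 higher and 2 lower without 60 min (3.7%, against 5.03%).

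RPL37A (YLR185W), which encodes a zinc-binding protein, had ratios of 1.48, 1.98, 0.88 and 0.91 at 0, 15, 30 and 60 min, the highest later average at 1.26 ± 0.62 (adjusted p = 0.0101). RPL17A, whose product lines the exit tunnel, stood at 1.12, 2.06, 0.76 and 0.72 (later average 1.18 ± 0.76, adjusted p = 0.0198). Both were high before inhibitor and highest at 15 min. RPP0 (YLR340W), the protein that anchors the stalk, stood at 1.34, 1.86, 1.08 and 0.51 (later average 1.15 ± 0.68, adjusted p = 0.0171). RPL38, a single gene, stood at 1.45, 1.65, 0.92 and 0.70 (later average 1.09 ± 0.50, adjusted p = 0.0130). These likewise had their highest ratio at 15 min.

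Also higher were RPL10, RPL7B, RPL7A and RPL19A, with later averages of 1.06 ± 0.66, 1.04 ± 0.74, 0.89 ± 0.45 and 0.80 ± 0.36 (adjusted p from 0.0232 to 0.0324). RPL10 encodes a protein that joins the subunit late in its assembly, and RPL19A one that bridges to the small subunit. RPL7A had a course of its own, with ratios of −0.14, 0.92, 0.43 and 1.33 at 0, 15, 30 and 60 min, while the other higher genes named here stood above 1 at 0 min. In the Ypk2 series none of the 9 passed, and their later averages there ran from −0.11 (RPL38) to 0.89 (RPL37A).

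Among the lower genes, RPL14A (YKL006W) stood at −0.75, −2.53, −2.23 and −1.70 at 0, 15, 30 and 60 min with AS Ypk1, a later average of −2.15 ± 0.42 (adjusted p = 0.00153). Over the 11 settings tried, RPL14A passed in all 11 with AS Ypk1 and in 9 with AS Ypk2. Of the other genes called with AS Ypk1, RPL19A passed in 4 settings, RPL10, RPL7B and RPL1B in 5, RPL7A in 6, and the rest in 8 or 9. The genes called with AS Ypk2 passed in 7 (RPL2A) to 9 settings of that ratio. RPL3 (YOR063W), a single essential gene whose protein reaches towards the catalytic centre, stood at 0.53, −1.61, −2.16 and −0.48 (later average −1.42 ± 0.85, adjusted p = 0.0209). RPL11B, whose protein binds 5S rRNA together with Rpl5, stood at 0.53, −0.90, −1.47 and −1.13 (later average −1.16 ± 0.29, adjusted p = 0.00555). RPL14A was low on all 4 arrays, and on the WT array, without inhibitor, it stood at −1.02. RPL3 and RPL11B lay above the array median at 0 min and below it at each later time.

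RPL24B, whose product contacts the small subunit, stood at 0.38, −1.16, −1.06 and −1.02 (later average −1.08 ± 0.07, adjusted p = 0.0122), with a small spread over the later times. RPL43A stood at 0.42, −0.48, −1.21 and −1.38 (later average −1.02 ± 0.48, adjusted p = 0.0156). RPL2B stood at −0.38, −0.85, −0.94 and −1.15 (later average −0.98 ± 0.15, adjusted p = 0.00855) and RPL1B at −0.37, −0.72, −0.50 and −0.89 (later average −0.70 ± 0.19, adjusted p = 0.0362). The last 2 genes lay below the array median at every time.

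With AS Ypk2, 0 large-subunit genes were higher than in WT cells by limma's test of the later ratio and 6 were lower, leaving 75 that did not pass, with a median of −0.23. The lower genes are 7.41% of the 81, against 4.73% of all features tested, and 6.98% of all features were higher. An unadjusted p under 0.05 in either direction was reached by 25 of the 81, against 1714 of the 6220 features tested. Without 30 min and without 60 min 0 genes passed, as was so for all features. Of the 81, 13 and 22 had an unadjusted p under 0.05 there, a count not made over all features. The split was 0 higher and 18 lower without centring, 5 higher and 16 lower with arrays scaled to one spread, and 0 higher and 22 lower with quantile normalization. In these settings 22.2%, 25.9% and 27.2% of the 81 genes passed, against 13.5%, 19.5% and 23.6% of all features. With array weights 18 were higher and 44 lower, when 66.8% of all features passed.

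RPL13A (YDL082W) stood at −0.18, −1.59, −1.43 and −1.64 at 0, 15, 30 and 60 min, with even later values that averaged −1.55 ± 0.11 (adjusted p = 0.00866). RPL14A stood at −0.16, −1.14, −1.12 and −1.55 (later average −1.27 ± 0.24, adjusted p = 0.0106), and of the 81 genes it alone passed in both series. RPL31B (YLR406C), whose protein sits at the mouth of the exit tunnel, stood at 0.54, −1.51, −1.16 and −3.08 (later average −1.92 ± 1.02, adjusted p = 0.0202). The 60 min value of RPL31B was the lowest of the 81 genes on that array. RPL11A stood at 0.55, −0.85, −1.44 and −1.31 (later average −1.20 ± 0.31, adjusted p = 0.0388) and RPL33A at 0.16, −1.33, −0.97 and −0.93 (later average −1.08 ± 0.22, adjusted p = 0.0336). RPL2A, whose protein lies near the catalytic centre, stood at −0.70, −0.78, −0.56 and −1.39 (later average −0.91 ± 0.43, adjusted p = 0.0346). RPL31B, RPL11A and RPL33A lay above the array median at 0 min, and RPL13A, RPL14A and RPL2A below it.

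The highest later averages with AS Ypk2 did not pass. RPL40A, which encodes a ribosomal protein made as a fusion to ubiquitin, stood at 0.34, 1.36, 1.40 and 0.52 (later average 1.09 ± 0.50, adjusted p = 0.0710). RPL37A stood at 1.13, 0.90, 0.92 and 0.84 (later average 0.89 ± 0.04, adjusted p = 0.0533) and RPL10 at 1.08, 0.92, 0.83 and 0.38 (later average 0.71 ± 0.29, adjusted p = 0.127). These genes lay above the array median at all times. RPL4A, whose protein helps to form the tunnel wall, owes its place to a single array, with 1.27, 0.19, 3.60 and −0.79, and so does RPL15B, with 0.14, 2.24, 0.43 and −0.41.

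**Figure D2:**
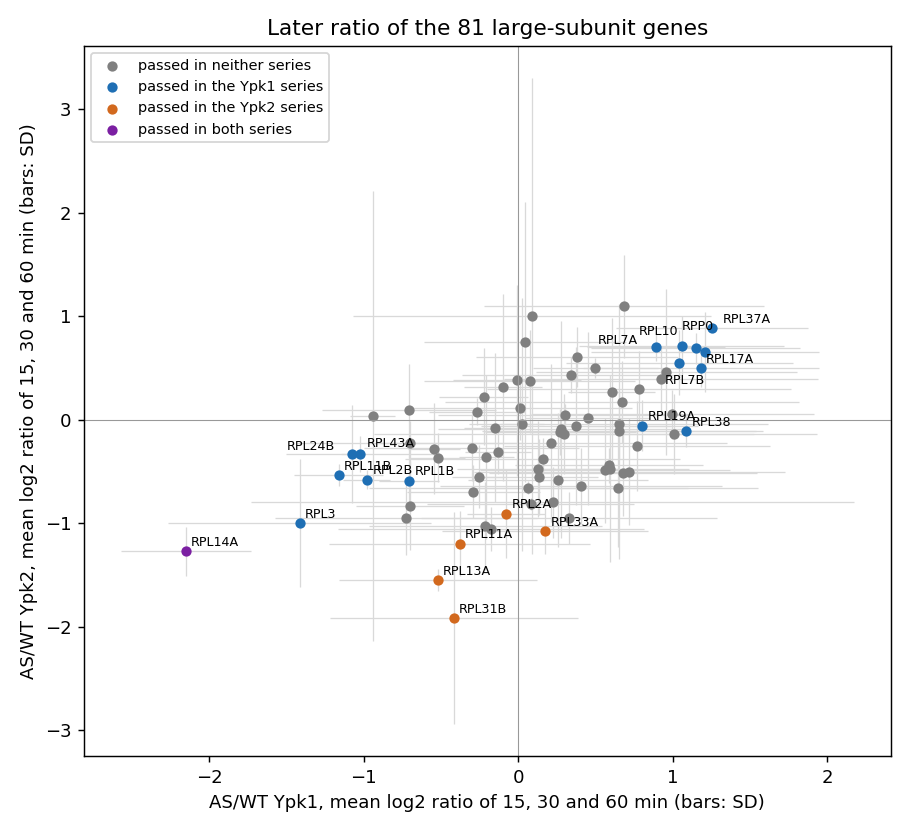
Each point is a large-subunit gene, with its average log2 ratio of AS over WT cells at 15, 30 and 60 min in the Ypk1 series on the x axis and in the Ypk2 series on the y axis, and bars are the SD over the 3 times. Coloured points passed limma's test, 16 with AS Ypk1 and 6 with AS Ypk2, with RPL14A (purple, at −2.15 and −1.27) in both.

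Set against their own 0 min array, many large-subunit genes lay lower after inhibitor, 32 with AS Ypk1 and 58 with AS Ypk2. With AS Ypk1 32 of 81 (39.5%) lay below 0 min at every later time, against 27% of all features, and 4 lay above, against 28%, with a median change of −0.43. With AS Ypk2 58 of 81 (71.6%) lay below at every later time, against 28.7% of all features, and 3 lay above, against 27.8%, with a median change of −0.81. Below 0 min at all later times in both were 25 genes (12.1% of all features were), RPL3, RPL14A, RPL28 and RPP2A among them. Each series has a single 0 min array, which all its later times share here. The median change stayed below 0 in each setting tried, from −0.95 to −0.27 with AS Ypk1 and from −1.14 to −0.79 with AS Ypk2.

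Among single genes, 0 of 81 changes passed limma's test in either series. Of all features, 0.0482% (AS Ypk1) and 0% (AS Ypk2) were called lower and 0% higher. In each series 13 of 81 had an unadjusted p under 0.05, against 703 (AS Ypk1) and 321 (AS Ypk2) of 6220 features. RPL27B had the largest difference from 0 min with AS Ypk1, with ratios of 1.33, −0.24, −0.24 and −1.71 at 0, 15, 30 and 60 min and a change of −2.06 ± 0.62 (SE, adjusted p = 0.276). RPL3 (−1.94 ± 0.68), RPL12B (−1.82 ± 0.65), RPL11B (−1.69 ± 0.40) and RPL4B (−1.47 ± 0.56) came next. RPL12B stood at 2.23, 1.46, −0.08 and −0.16 and RPL4B at 1.17, 0.49, −0.81 and −0.58. RPL12B and RPL4B thus lay above the array median at 0 and 15 min, and RPL27B at 0 min alone.

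Upward differences with AS Ypk1 were headed by RPL6B (1.06 ± 0.47), RPL7A (1.03 ± 0.44) and RPL23A (0.63 ± 1.15). RPL6B stood at −0.79, 0.36, −0.25 and 0.71 and RPL23A at −0.40, −0.34, −1.39 and 2.39 at 0, 15, 30 and 60 min. RPL6B thus began low, and RPL23A stood above the array median at 60 min alone.

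The largest difference with AS Ypk2 was that of RPL31B, at −2.46 ± 0.80 (SE, adjusted p = 0.831). RPL11A (−1.75 ± 0.61), RPL34A (−1.69 ± 0.47), RPL32 (−1.66 ± 0.84) and RPL16B (−1.64 ± 0.69) followed. RPL34A stood at 0.86, −0.37, −0.89 and −1.23 at 0, 15, 30 and 60 min, RPL32 at 1.43, 0.63, −0.46 and −0.85, and RPL16B at 0.99, −0.45, −0.21 and −1.31. All 3 lay above the array median at 0 min. Of the largest upward differences, RPL27A stood at −0.42, 0.27, 0.80 and 0.74, a change of 1.03 ± 0.53, and RPL34B at −0.21, 0.47, 0.42 and 0.61, a change of 0.71 ± 0.43. RPL40A had a change of 0.76 ± 0.67. The difference between the changes of the series was tested as well, and 0 of 81 genes passed, as did 0% of all features. For 2 of the 81 the unadjusted p was under 0.05, against 168 of 6220 features. No single gene was thus shown to change differently with AS Ypk1 than with AS Ypk2.

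Grouped by place in the subunit, the stalk and its base (RPP0, RPP1A, RPP1B, RPP2A, RPP2B, RPL12A and RPL12B) had medians of 1.28, 1.65, 0.18 and 0.02 at 0, 15, 30 and 60 min with AS Ypk1. With AS Ypk2 the medians were 0.84, 0.06, −0.36 and −0.54. By the later ratio with AS Ypk1, 1 of the 7, RPP0, was higher (14.3%, against 10.9% of all features) and 6 did not pass, and none of the 7 passed with AS Ypk2.

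RPP0 lay above the array median throughout, with 0.72, 0.60, 0.87 and 0.61 at 0, 15, 30 and 60 min of AS Ypk2. Of the acidic proteins it carries, RPP1A stood at 1.13, 1.65, 0.36 and −0.05 with AS Ypk1 and 1.37, 1.19, −0.27 and −1.26 with AS Ypk2. RPP1B stood at 1.02, 2.06, 0.47 and 0.47 with AS Ypk1 and 1.09, 0.14, 0.23 and −0.22 with AS Ypk2. Both were highest at 15 min with AS Ypk1 and at 0 min with AS Ypk2. RPP2A stood at 1.28, 0.70, −0.33 and 0.02 with AS Ypk1 and 0.84, 0.06, −0.76 and −0.74 with AS Ypk2, and RPP2B at 1.31, 1.89, 0.18 and 0.10 and 0.90, 0.03, −1.002 and −0.54. All of these acidic stalk genes were below the array median at 60 min of AS Ypk2.

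The 17 genes of the exit tunnel had medians of 0.76, 0.49, −0.07 and −0.35 at 0, 15, 30 and 60 min with AS Ypk1 and 0.86, 0.20, −0.28 and −0.16 with AS Ypk2. RPL17A, RPL19A and RPL38 were higher with AS Ypk1 and the other 14 did not pass, and RPL31B was lower with AS Ypk2 and 16 did not pass. These calls are 17.6% of the 17 genes, against 10.9% of all features, and 5.88%, against 4.73%. RPL39, a short protein inside the tunnel, stood below the array median on all 9 arrays, from −0.88 to −0.12. Of the partners that carry 5S rRNA, RPL5 stood at 1.40, 1.4998, 0.09 and 0.10 with AS Ypk1 and 0.39, −1.06, −0.33 and −0.08 with AS Ypk2. RPL11B was lower with AS Ypk1 and RPL11A with AS Ypk2, so each copy passed in 1 series. Each is 33.3% of the 3 genes with RPL5, against 10.5% and 4.73% of all features. The later difference between the RPL11 copies, tested below, passed in neither series. Among the genes of contacts between the subunits, RPL19A was higher and RPL24B lower with AS Ypk1. Each is 14.3% of 7 genes, near the 10.9% higher and 10.5% lower of all features. RPL40A and RPL40B, the ubiquitin fusion genes, did not pass in either series. The 11 single genes included 3 higher (RPL10, RPL38 and RPP0) and 1 lower (RPL3) with AS Ypk1 (27.3% and 9.09%, against 10.9% and 10.5% of all features), and none passed with AS Ypk2.

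**Figure D3:**
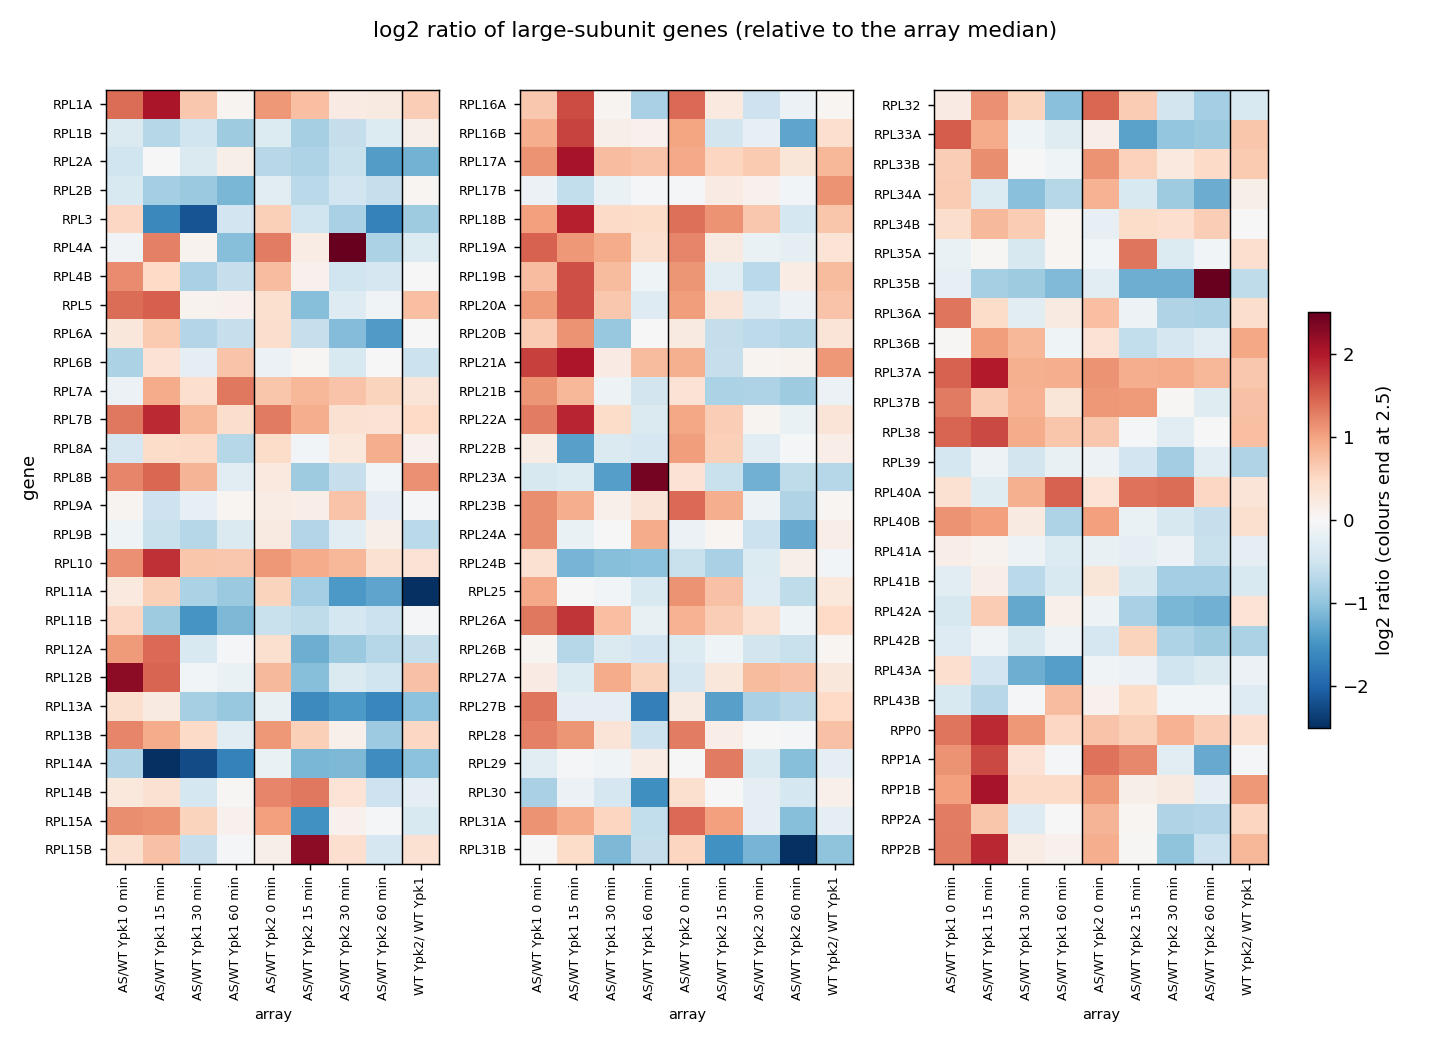
Heat map of the log2 ratio of the large-subunit genes reported here (rows, ordered by name, in 3 panels) on the 9 arrays (columns), from blue (lower in the cells named first) over white to red (higher), with colours ending at 2.5 either way. Red fills much of the 0 min columns and the 15 min column of the Ypk1 series, and single dark cells mark RPL4A, RPL11A, RPL23A, RPL31B and RPL35B on 1 array each.

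Copies A and B of a gene were often unalike. Over the 8 time course arrays, the median correlation of the 2 copies was r = 0.22 over 35 pairs, with a range from −0.87 (RPL17) to 0.95, and 12 pairs lay below 0. Among 3205 pairs of different large-subunit genes the median was 0.32. All of these share the arrays and their centring. With the median of the 81 genes taken off each array, the medians were −0.02 for copies and −0.01 for different genes. In 5 pairs r was above 0.8, among them RPL12, RPL21, RPP2 and RPL19, with r from 0.80 to 0.94. How far a spot also binds transcript of the partner copy was not tested, so the values of copies are uncertain.

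To ask whether the copies of a gene had unequal ratios of AS over WT cells after inhibitor, the log2 ratio of B was subtracted from that of A within each array, and the later average was tested with limma over all 61 A and B pairs in the table, 59 of them ribosomal. This average includes any gap already present at 0 min. With AS Ypk1 4 of 35 large-subunit pairs passed (11.4%, against 16.4% of all pairs), 2 with A higher (RPL1 and RPL17) and 2 with B higher (RPL14 and RPL34). With AS Ypk2 6 of 35 passed (17.1%, against 14.8% of all pairs), 2 with A higher (RPL27 and RPL31) and 4 with B higher (RPL13, RPL14, RPL33 and RPL34). RPL14 and RPL34 passed in both, with the same copy higher. All 61 pairs include these 35, so the shares compared are not independent. Of the 24 small-subunit pairs, 25% passed with AS Ypk1 and 12.5% with AS Ypk2. With 1 time left out, 0 to 5 pairs passed with AS Ypk1 and 0 to 9 with AS Ypk2, the lowest counts being those without 30 min in both and also without 15 min with AS Ypk2. With time as a replicate block, 2 and 0 pairs passed.

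RPL14 had the widest average gap. A minus B was −1.02, −2.91, −1.79 and −1.73 at 0, 15, 30 and 60 min with AS Ypk1 (later average −2.14 ± 0.67, SD, adjusted p = 0.00605). With AS Ypk2 it was −1.38, −2.46, −1.47 and −1.02 (later average −1.65 ± 0.74, SD, adjusted p = 0.0203), and on the WT array −0.79. RPL14A thus stood below RPL14B on all 9 arrays. RPL14B itself stood at 0.27, 0.39, −0.44 and 0.03 with AS Ypk1 and 1.22, 1.32, 0.35 and −0.53 with AS Ypk2.

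RPL13 and RPL1 also kept the same copy higher on all 9 arrays. A minus B for RPL13 was −0.82, −0.71, −1.32 and −0.66 at 0, 15, 30 and 60 min with AS Ypk1 (adjusted p = 0.0973) and −1.26, −2.18, −1.55 and −0.73 with AS Ypk2 (adjusted p = 0.0223). For RPL1, whose protein forms the stalk at the exit site of transfer RNA, it was 1.76, 2.77, 1.17 and 0.95 with AS Ypk1 (adjusted p = 0.0266) and 1.43, 1.57, 0.79 and 0.57 with AS Ypk2 (adjusted p = 0.189). RPL1A stood at 1.39, 2.05, 0.67 and 0.06 with AS Ypk1, while RPL1B stayed between −0.89 and −0.34 on the 8 time course arrays. In all, 6 of 35 pairs (17.1%, against 16.4% of all pairs) kept the same copy higher on these 8 arrays: copy A of RPL1, RPL17, RPL21 and RPL26, and copy B of RPL13 and RPL14. On the 6 later arrays alone, 8 pairs did so (22.9%, against 23% of all pairs).

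In RPL27 and RPL34 the order of the copies after inhibitor was the reverse of that at 0 min. A minus B for RPL27 was −1.12, −0.10, 1.17 and 2.26 at 0, 15, 30 and 60 min with AS Ypk1 (adjusted p = 0.0791) and −0.64, 1.63, 1.61 and 1.42 with AS Ypk2 (adjusted p = 0.0325), the exception being 15 min with AS Ypk1. RPL27A stood at 0.21, −0.34, 0.93 and 0.55 with AS Ypk1, and RPL27B stood at 0.22, −1.35, −0.81 and −0.68 with AS Ypk2. For RPL34, A minus B was 0.19, −1.16, −1.68 and −0.77 with AS Ypk1 (adjusted p = 0.0436) and 1.07, −0.84, −1.31 and −1.84 with AS Ypk2 (adjusted p = 0.0296). As a change against 0 min, though, 0 of 35 pairs passed limma's test in either series (2 and 3 had an unadjusted p under 0.05), nor did any pass for the difference between the series (1 unadjusted).

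Other pairs passed in 1 series. A minus B for RPL31 was 1.10, 0.46, 1.65 and −0.02 at 0, 15, 30 and 60 min with AS Ypk1 (adjusted p = 0.277) and 0.88, 2.53, 0.92 and 2.02 with AS Ypk2 (adjusted p = 0.0203). For RPL33 it was 0.90, −0.23, −0.09 and −0.20 with AS Ypk1 (adjusted p = 0.764) and −0.95, −1.91, −1.21 and −1.40 with AS Ypk2 (adjusted p = 0.0203). For RPL17 it was 1.27, 2.68, 0.92 and 0.74 with AS Ypk1 (adjusted p = 0.0381) and 0.998, 0.34, 0.56 and 0.36 with AS Ypk2 (adjusted p = 0.505). The pairs with the smallest average gap over the 6 later arrays were RPL7, RPL11 and RPL16, yet their copies were not equal at single times. A minus B for RPL7 was −1.47, −0.94, −0.41 and 0.89 with AS Ypk1 and −0.61, −0.09, 0.34 and 0.20 with AS Ypk2, and for RPL16 it was −0.23, −0.07, −0.07 and −0.91 and 0.43, 0.71, −0.31 and 1.16. For RPL11 it was −0.28, 1.49, 0.67 and 0.19 with AS Ypk1 (adjusted p = 0.137) and 1.12, −0.20, −1.01 and −0.78 with AS Ypk2 (adjusted p = 0.312). These gaps of opposite sign at the later times cancel in the average.

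**Figure D4:**
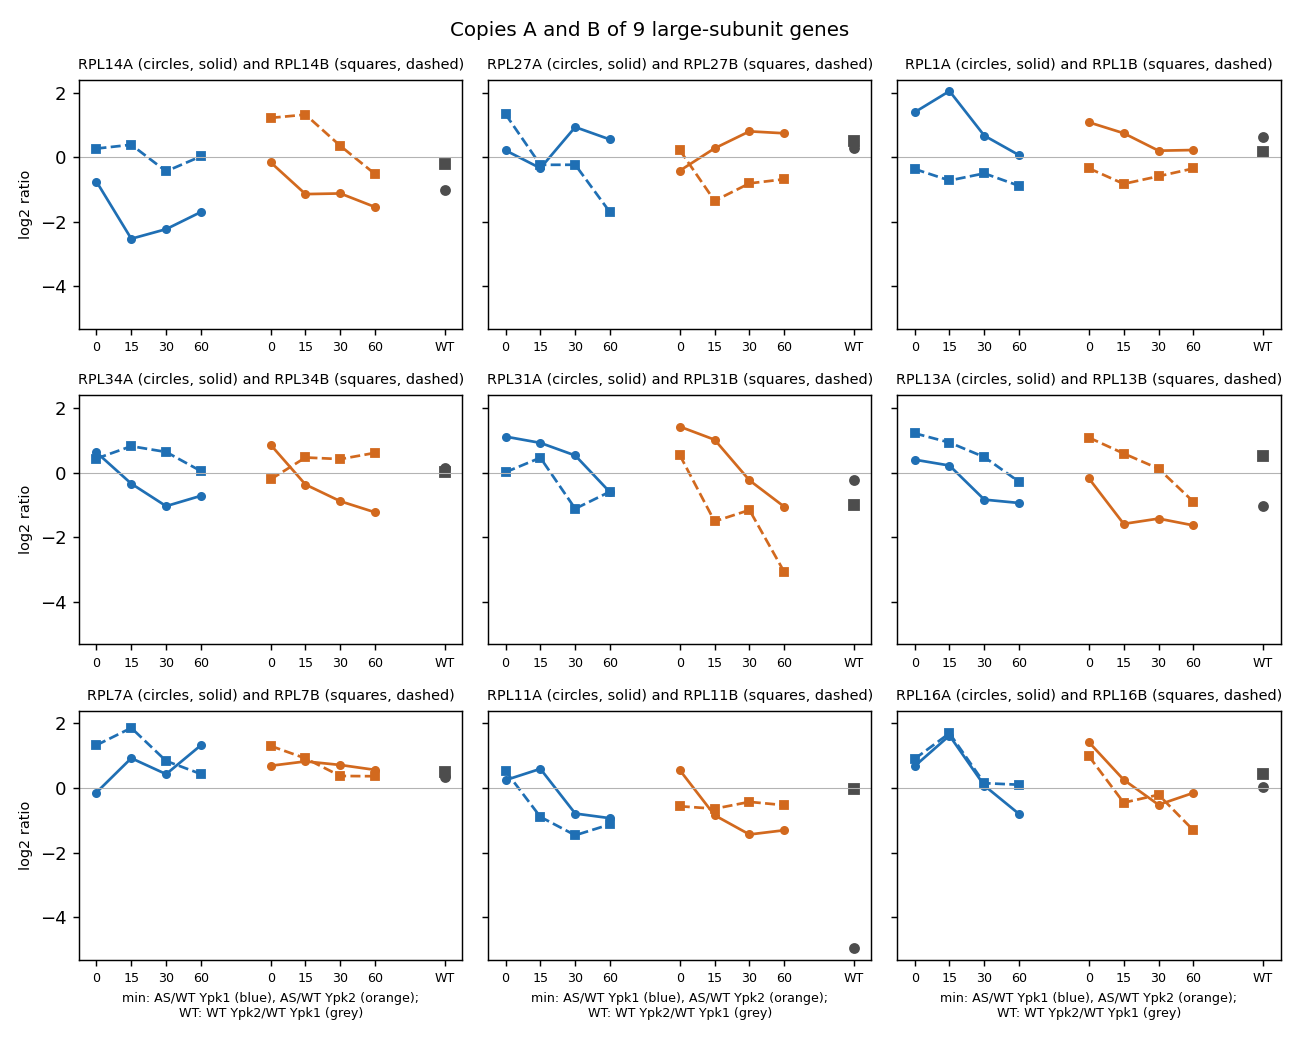
Log2 ratios (y axis, relative to the array median) of copies A (circles, solid lines) and B (squares, dashed lines) over 0, 15, 30 and 60 min with AS over WT Ypk1 (blue) and AS over WT Ypk2 (orange), and on the WT array (grey), for the 6 pairs with the widest average gap over the later arrays and, in the bottom row, the 3 with the narrowest. RPL14A runs below RPL14B on all 9 arrays, the copies of RPL27 and RPL34 cross after 0 min, and RPL11A stands at −4.97 on the WT array.

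Between the WT strains without inhibitor, the median of the large-subunit genes in WT Ypk2 over WT Ypk1 cells was 0.17. At least 2-fold higher were 4 of 81 genes (4.94%) and 2-fold lower 4 (4.94%), against 2.74% and 2.35% of all features. RPL8B (1.14), RPL17B (1.12) and RPP1B (1.08) were highest, and RPL2A (−1.18), RPL13A (−1.02) and RPL14A (−1.02) stood low. RPL11A was lowest at −4.97, while its partner RPL11B stood at −0.04, and on the other 8 arrays RPL11A ran from −1.44 to 0.59. With 1 array, no error can be given.

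Values that stood 2 or more from a gene's own median over the 9 arrays were found for 6 of the 81 genes, on 1 array each. Besides RPL11A on the WT array, they were RPL12B at 2.23 (0 min) and RPL23A at 2.39 (60 min) with AS Ypk1. With AS Ypk2 they were RPL4A at 3.60 (30 min), and RPL35B at 2.55 and RPL31B at −3.08 (60 min). They make 0.823% of the 729 values, against 0.713% of the values of all features.

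Over the 8 time course arrays, the correlation of a gene with the median of the 81 genes, which each gene helps to set, was highest for RPL6A (r = 0.99), RPL11A (0.98), RPP2B (0.95) and RPP2A (0.95). RPL27A (−0.86), RPL40A (−0.72) and RPL17B (−0.60) were lowest. RPL40A stood at 0.37, −0.30, 0.89 and 1.47 at 0, 15, 30 and 60 min with AS Ypk1, so that it was highest at 60 min, where the median of the 81 genes was lowest. RPL17B stayed between −0.61 and 0.20 on all 8 arrays.

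The 56 small-subunit genes had medians of 0.73, 0.77, −0.06 and −0.16 at 0, 15, 30 and 60 min with AS Ypk1 and 0.71, −0.23, −0.40 and −0.61 with AS Ypk2. With AS Ypk1, 3 of them were higher by the later ratio (5.36%, against 10.9% of all features) and 4 lower (7.14%, against 10.5%). With AS Ypk2 1 was higher (1.79%, against 6.98%) and 7 lower (12.5%, against 4.73%). Relative to the array median, both subunits thus stood high at 15 min with AS Ypk1.

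Genes that build the large subunit had lower medians than the large-subunit genes at every time in both series. The 25 assembly and export genes had medians of −0.09, −1.004, −1 and −0.81 at 0, 15, 30 and 60 min with AS Ypk1. With AS Ypk2 these were −0.11, −0.52, −0.92 and −0.92. In each series the medians of both sets were lower at 60 min than at 0 min. With AS Ypk1 15 of them passed as lower and 1 as higher, leaving 9 that did not pass. The lower genes are 60% of the 25 and the higher gene 4%, against 10.5% and 10.9% of all features. With AS Ypk2 9 passed as lower (36%, against 4.73% of all features) and 1 as higher (4%, against 6.98%), leaving 15. At 15 min with AS Ypk1, the median of the assembly genes was thus low while that of the ribosomal proteins was high. YTM1, an assembly factor, stood at −0.93, −2.16, −2.12 and −2.64 with AS Ypk1 (later average −2.31 ± 0.29, adjusted p = 0.00107). RRS1, which helps to bring in the 5S particle, averaged −2.15 ± 0.60 (adjusted p = 0.00180). ALB1, a shuttling factor, was higher with both kinases, at 1.52 ± 0.49 (adjusted p = 0.00365) with AS Ypk1 and 1.10 ± 0.18 (adjusted p = 0.0202) with AS Ypk2. At 0 min ALB1 already stood at 0.95 with AS Ypk1, and at 0.22 with AS Ypk2.

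Among 5 dedicated chaperones of large-subunit proteins, 4 were lower with AS Ypk1 and 1 did not pass, and 1 was lower with AS Ypk2. These are 80% and 20% of the list, against 10.5% and 4.73% of all features. SYO1, which carries Rpl5 and Rpl11 into the nucleus, was lower with both, at −1.48 ± 0.38 (adjusted p = 0.00350) with AS Ypk1 and −1.497 ± 0.21 (adjusted p = 0.00588) with AS Ypk2. ACL4, the chaperone of Rpl4, averaged −0.89 ± 0.09 with AS Ypk1 (adjusted p = 0.0122). BCP1, that of Rpl23, averaged −1.15 ± 0.73 (adjusted p = 0.0198) and SQT1, that of Rpl10, −0.75 ± 0.39 (adjusted p = 0.0471). At 0 min with AS Ypk1, BCP1 stood lower still, at −1.48, while SYO1, ACL4 and SQT1 stood at −0.43, −0.42 and −0.20. RRB1, the chaperone of Rpl3, averaged 0.19 ± 0.83 with AS Ypk1 (adjusted p = 0.671), where RPL3 itself was lower.

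Of 12 regulators of ribosomal genes, 1 was higher, 1 lower and 10 did not pass with AS Ypk1, and with AS Ypk2 1 was higher and 11 did not pass. Each single call is 8.33% of the list, near the 10.9% higher and 10.5% lower of all features with AS Ypk1 and the 6.98% higher with AS Ypk2. STB3, a repressor that binds promoters of ribosome biogenesis genes, was higher with both kinases. It stood at −0.51, 0.71, 0.91 and 0.81 at 0, 15, 30 and 60 min with AS Ypk1 (later average 0.81 ± 0.10, adjusted p = 0.0207) and 0.37, 0.84, 0.95 and 0.45 with AS Ypk2 (later average 0.75 ± 0.26, adjusted p = 0.0409). TOD6, another repressor of ribosome biogenesis genes, was lower with AS Ypk1, with uneven values of 0.04, −1.25, −1.51 and −4.66 (later average −2.47 ± 1.90, adjusted p = 0.0160). The activators IFH1, FHL1, RAP1 and SFP1, named here for their role, did not pass. IFH1 averaged −0.50 ± 0.62 with AS Ypk1 and 0.12 ± 0.65 with AS Ypk2, FHL1 −0.56 ± 0.56 and −0.17 ± 0.48, RAP1 −0.73 ± 0.81 and −0.62 ± 0.20, and SFP1 0.52 ± 0.24 and 0.66 ± 0.02.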

How the data were processed

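Each array held poly(A) RNA of 2 strains, Cy3 for WT and Cy5 for AS (WT Ypk2 on the ninth), per the labels. The authors deposited a log2 ratio for each feature. As log2, 100% of the values fall on a grid of ratios in steps of 0.001, against 28.1% as log10. That the ratio is Cy5 over Cy3 follows from the WT strains (YPK2 deposited as 5.34, YPK1 as −4.47) and is taken to hold elsewhere. Normalization, scanner and array design are not given in the sources used here, and no intensities were used, so the number of arrays limits the precision.

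Of 6268 features, 5777 were named through the R64 annotation by systematic name. After median centring, limma 3.58.1 (R 4.3.3) was run on the 6220 features with all 8 time course values. Its terms were each kinase before and after inhibitor, which leaves 4 residual degrees of freedom, with Benjamini-Hochberg adjustment at 0.05. The lone 0 min arrays are assumed to vary like the others. The 61 copy pairs had their own fit. Both were tested on simulated data. Full values were given for the 5 highest and 5 lowest genes by later ratio, the 5 largest falls and 3 largest rises against 0 min, the stalk genes, the 6 widest and 3 narrowest copy pairs and the 3 highest and 3 lowest on the WT array. Others that passed were named too, except for 1 gene that is counted but not reported here, and those named for a single far value, their 0 min value or their course were chosen after their values were seen. The members and lists were chosen with earlier results of these data known. Alternatives were no centring, scaling, quantile normalization, array weights, robust moderation, all features, each time left out, time as a block, a common baseline and ribosomal pairs alone. Introns and the sequence identity of copies were not analysed here.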

Additional observations from a re-analysis of the deposited data

How the results depend on the processing

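The number of large-subunit genes called by the later ratio depended on the times kept. With 1 time left out it ranged from 1 to 11 of 81 with AS Ypk1 (16 with all times) and from 0 to 9 with AS Ypk2 (6 with all times). The share of all features called then ranged from 4.13% to 18.7% (21.5% with all times) and from 0% to 12.2% (11.7% with all times). For AS Ypk2 it was 18 without centring, 21 with arrays scaled to one spread, 22 after quantile normalization and 62 under array weights, where the share of all features called was 13.5%, 19.5%, 23.6% and 66.8%. For the change against 0 min, 1 gene was called with AS Ypk1 after scaling and 1 under array weights, and 6 with AS Ypk2 under array weights. These are 1.23%, 1.23% and 7.41% of the 81, against 0.949%, 1.41% and 2.56% of all features. The median change was −0.95 without centring for AS Ypk1, and −1.14 after scaling and −1.10 after quantile normalization for AS Ypk2. Without centring the median later ratio of AS Ypk2 was −0.52 and its 0 min median 0.315, and after scaling the 0 min median was 0.82. The copy pairs called with AS Ypk1 were 2 after scaling, 2 after quantile normalization and 7 under array weights, and with 1 time left out they ran from 0 to 5, against 0 to 9 with AS Ypk2. Of all 61 pairs, these settings called 6, 7 and 14 with AS Ypk1, and 0 to 12 in either series with 1 time left out. In each of these cases the cause was not tested. In the other 94 comparisons with an alternative, counts moved by at most 1.5 times and medians by less than their spread over times.

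Arrays of the same time did not all deviate together (r = 0.16, 0.11 and −0.10 at 15, 30 and 60 min over all features tested), so the times are not taken as pairs. With time as a replicate block, 18 genes passed with AS Ypk1 (22.2%, against 19.9% of all features) and 5 with AS Ypk2 (6.17%, against 9.94%). Copy pairs numbered 2 and 0, against 4 and 0 of all 61 pairs. Leaving out near-identical copies was not run, as it needs sequences. Array weights stopped before full convergence.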
